A study of Homo sapiens with 12 samples.

Results

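The chromosome 19 miRNA cluster was followed on 12 single-colour 3D-Gene human miRNA arrays of KYSE150 cells, an established line of human oesophageal squamous cell carcinoma. Its members were the array probes that carry any human miRNA name of miR-512, miR-515 to miR-527, miR-498 or miR-1323, whatever the letter, arm or copy suffix, and a probe with several names counted once. The rule found 51 of the 2565 human miRNA probes. Of these, 5 carried several names, and the 51 probes held 61 names in all. There were 6 galectin-9 arrays, from cells given 100 nM galectin-9 for 6 h, and 6 control arrays, from cells without galectin-9. Galectin-9 is a lectin that binds beta-galactosides on glycoproteins. Both groups were the same single line and were grown in Ham's F12 medium with 2% fetal bovine serum, and total RNA was labelled with Cy5. The labels number the samples 1 to 6 in each group and do not state whether each number was a culture of its own, so the tests below cover the spread between the numbered samples, which may be technical in part or whole.

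The cluster is a primate-specific array of related hairpin genes. It is imprinted and transcribed from the paternal allele, mainly in the trophoblast of the placenta, and trophoblast cells release its miRNAs into the maternal circulation. Most other adult tissues hold little of it, and it is active in some tumours. A miRNA finds its target mRNAs mainly through its seed, bases 2 to 8 from the 5′ end, and several members share a seed with the miR-302, miR-372 and miR-373 family of embryonic stem cells or with the miR-17 family, which promotes proliferation.

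Of the 51 probes, 46 matched a mature sequence in the RefSeq table (GRCh38.p14), and all 46 lay on chromosome 19. Their genes with a hairpin entry in that table, 37 in all, were on the plus strand and spanned 95.8 kb, chr19:53666679-53762430. MIR517A and MIR520F, also genes of matched probes, had no such entry. The matched probes held 29 distinct seeds. The following sequences are given 5′ to 3′ with the seed in capitals. The first set is miR-519a-3p, the member on which the comparison turns, with the matched members that differ from it by 3 or fewer edits and keep its length without a gap.
miR-519a-3p: aAAGUGCAuccuuuuagagugu
miR-519b-3p: aAAGUGCAuccuuuuagagguu
miR-519c-3p: aAAGUGCAucuuuuuagaggau
miR-517c-3p: aUCGUGCAuccuuuuagagugu
miR-517a-3p and miR-517b-3p: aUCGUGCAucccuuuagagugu
miR-520c-3p: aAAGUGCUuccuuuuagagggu
Counted from 1 at the 5′ end, miR-517c-3p differs from miR-519a-3p only in its seed (A2U and A3C). miR-519b-3p keeps the seed and differs near the 3′ end (U20G and G21U). miR-519c-3p also keeps the seed (C11U, U20G and G21A), and miR-520c-3p carries A8U and U20G. The shared probe for miR-517a-3p and miR-517b-3p carries A2U, A3C and U12C. Among the 2281 miRNAs of the array with a matched sequence, the closest outside the cluster, miR-302d-3p, stood 5 edits away. Mature miR-519a-3p comes from 2 hairpin genes. Its mature sequence lies at chr19:53752449-53752470 in MIR519A1 and at chr19:53762397-53762418 in MIR519A2.

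The second set shows other members that are described below for their level or their change.
miR-519d-3p: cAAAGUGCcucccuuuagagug
miR-518b: cAAAGCGCuccccuuuagaggu
miR-520h: aCAAAGUGcuucccuuuagagu
miR-520g-3p: aCAAAGUGcuucccuuuagagugu
miR-526a, miR-520c-5p and miR-518d-5p (1 probe): cUCUAGAGggaagcacuuucug
miR-519c-5p, miR-523-5p, miR-518e-5p, miR-522-5p, miR-519a-5p and miR-519b-5p (1 probe): cUCUAGAGggaagcgcuuucug
The last probe's 6 named miRNAs have a single sequence, and it differs from the one above it by 1 base (G15A, with the 6-name sequence first). miR-519d-3p and miR-526b-3p carry the seed AAAGUGC of miR-17-5p, miR-20a-5p, miR-20b-5p, miR-93-5p, miR-106a-5p and miR-106b-5p. miR-520a-3p, miR-520c-3p and miR-520d-3p carry the seed AAGUGCU of the miR-302 family, miR-372-3p and miR-373-3p. No array probe outside the cluster with a matched sequence carried AAGUGCA, the seed of miR-519a-3p, miR-519b-3p and miR-519c-3p.

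A probe was taken as detected on an array where the file lists a background-subtracted value, which required a raw intensity above the mean of the blank spots by more than 2 SD. Of the cluster's 51 probes, 7 (13.7%) were detected on all 12 arrays, against 891 (34.7%) of all 2565 human probes. Without control 6, the array with the fewest listed probes, 17 members (33.3%) were detected on all of the other 11 arrays, against 1173 (45.7%) of all probes. At the looser limit of 6 arrays the shares were closer, 33 (64.7%) of the cluster and 1734 (67.6%) of all probes. A further 16 members were detected on 1 to 5 arrays, and miR-518e-3p and miR-519c-3p on none.

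Detected members per array had a lowest count of 25, a median of 35 and a highest of 43 on the galectin-9 arrays, against 7, 32 and 40 on the control arrays. By replicate number, 1 to 6, they were 42, 36, 34, 25, 43 and 34 on galectin-9 arrays and 32, 40, 40, 22, 32 and 7 on control arrays. The groups overlapped. The lowest count was that of control 6, which listed 13.7% of the members and 36.4% of all human probes. That array also had the highest detection limit, 45.8 intensity units, where the other 11 arrays lay between 29.4 and 40.1. Across the group, 60.5% to 79.7% of all probes were listed on galectin-9 arrays (median 72.2%) and 36.4% to 73.9% on control arrays (median 63.8%). These ranges overlapped. In replicates 1, 4, 5 and 6 the galectin-9 array listed more probes than the control array. In replicates 2 and 3 it listed fewer (70.9% and 61.9%, against 73.8% and 73.9%). More galectin-9 than control arrays listed the member for 29 of the 51 (56.9%), fewer for 10 and as many for 12. Of all 2565 probes, 1105 (43.1%) had more galectin-9 arrays and 177 had more control arrays. Probes on all arrays or on none cannot differ. They were 891 and 192 of all probes, against 7 and 2 of the members, so the 2 percentages are not like for like. All 10 members listed on exactly 11 arrays were missing on control 6 alone. The part of the detection limit in these counts was not tested.

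Detection was uneven within the cluster. Of the 26 matched probes for 3p arms, 13 were detected on at least 11 arrays and 5 on all 12, against 3 and 1 of the 20 probes for 5p arms, although 15 of each kind passed the limit of 6 arrays. The hairpins of the matched members listed on all arrays lay 36.1 to 95.7 kb from the first hairpin of the cluster. Nearer to it, at 0.0415 to 28.6 kb, lay miR-512-3p, miR-1323, miR-515-3p, miR-519e-3p and miR-519b-3p. Each was detected on 11 arrays and missed on control 6 alone, so this range rests on that array. Of the 26 matched 3p probes, 9 hold the letters UUUAGAGU, read on the mature strand only, and 8 of these 9 were detected on at least 11 arrays, 4 of them on all 12. The exception, miR-518c-3p, was listed on 4 arrays. Of the other 17 matched 3p probes, 5 were detected on at least 11 arrays. These letters were picked after the detection counts had been seen. They occur in 10 of the 2370 mature human miRNAs of the table (0.422%), none of them outside the cluster. They are present in miR-519a-3p and miR-517c-3p and missing in miR-519b-3p and miR-519c-3p.

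miR-519a-3p, from the miR-519 group that represses the RNA-binding protein HuR (ELAVL1) in cancer cells, was the clearest difference between the groups among the members, although it did not pass the test. Its log2 normalised intensity had a lowest value of 5.48, a median of 5.75 and a highest of 6.17 on galectin-9 arrays, against 6.21, 6.24 and 6.36 on control arrays. All 6 galectin-9 arrays lay below all 6 control arrays, and galectin-9 was lower in 6 of 6 numbered pairs. The groups averaged 5.75 ± 0.24 and 6.26 ± 0.056 (SD, n = 6 each), a log2 difference of -0.51 (95% interval -0.75 to -0.27), or 1.42-fold lower in galectin-9. The adjusted p was 0.141 (limma, Benjamini-Hochberg over the 1734 probes detected on at least 6 arrays; two-sided). Restricting the test to the 891 always-listed probes gave an adjusted p of 0.0301 (limma), and miR-519a-3p was the 1 of 7 members called lower, where 0.337% of all those probes were called lower. Adding the replicate number as a block gave 0.189 over the 1734 probes, where 0% were called lower, and 0.0405 over the 891, where 0.898% were called lower (limma, adjusted p). It was also the 1 member called lower on raw intensity without a floor or background subtraction. There 0.288% of all tested probes were called lower, and 0.195% with no filter. The same held with normexp background correction (0.346%), in the authors' series table (0.337%) and with a mean-variance trend in eBayes (0.115%). No member was called lower with no filter on floored values, a common floor, no normalisation, the authors' global normalisation, or slide as a block. Nor was one with any slide left out. Of the 29 alternatives, 8 called miR-519a-3p.

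Leaving out galectin-9 replicate 6, the galectin-9 array with the highest value, gave -0.59 and an adjusted p of 0.0265 (limma), where 0.0577% of all probes were called lower. By slide, as coded in the array names, the difference was -0.62, -0.59 and -0.31 on slides 1, 2 and 3, with 2 pairs each. Control samples took the odd positions of every slide and galectin-9 samples the even ones, so position and treatment cannot be told apart. Raw intensity of the miR-519a-3p spot, before any subtraction or scaling, was 79.1 to 94.9 units on galectin-9 arrays (median 88.2) and 101 to 115 units on control arrays (median 109). After the array's background was taken off, the 2 groups overlapped, at 51.5 to 64.0 and 62.7 to 85.1 units. Set against the median difference of all 1734 probes, miR-519a-3p stood -0.44 log2 units away, and -0.46 with no normalisation or with the authors' global normalisation. Among all probes detected on at least 6 arrays, 0.75% had non-overlapping groups with galectin-9 lower and 0.807% with galectin-9 higher. Among the 33 members tested, miR-519a-3p was the 1 with groups that did not overlap.

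The other 6 members detected on all arrays showed smaller differences, and the groups overlapped in each. miR-522-3p had a lowest log2 level of 3.63, a median of 4.01 and a highest of 4.49 on galectin-9 arrays, against 4.05, 4.26 and 4.50 on control arrays. It averaged 4.03 ± 0.32 on galectin-9 arrays and 4.26 ± 0.17 on control arrays, a log2 difference of -0.24 (95% interval -0.55 to 0.082, adjusted p = 0.496, limma). miR-519d-3p, with the seed of miR-17-5p, averaged 2.87 ± 0.35 and 3.10 ± 0.13 (-0.23, adjusted p = 0.534, limma). miR-518b, described as a regulator of the small GTPase RAP1B in oesophageal squamous carcinoma, averaged 2.53 ± 0.14 and 2.73 ± 0.18 (-0.20). None of these 3 differences passed the test. The probe for miR-517a-3p and miR-517b-3p, which are markers of trophoblast RNA in maternal plasma, gave -0.13 (95% interval -0.50 to 0.24). miR-517c-3p had a lowest log2 level of 3.56, a median of 3.98 and a highest of 4.21 on galectin-9 arrays, against 3.44, 3.91 and 4.05 on control arrays. It averaged 3.90 ± 0.25 on galectin-9 arrays and 3.86 ± 0.23 on control arrays, a difference of 0.039 (95% interval -0.26 to 0.34). The probe for miR-526a, miR-520c-5p and miR-518d-5p was the other with a value above 0, at 0.23 (95% interval -0.17 to 0.63).

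Because miR-517c-3p differs from miR-519a-3p in 2 seed bases only, the ratio of these 2 spots on the same array shows how alike near-identical sequences behaved. The log2 level of miR-519a-3p minus that of miR-517c-3p was taken from the quantile-normalised values. It was 1.53 to 2.14 on galectin-9 arrays and 2.20 to 2.92 on control arrays. The mean was 1.85 ± 0.20 in galectin-9 and 2.40 ± 0.27 in control (SD, n = 6 each), a difference of -0.55, and the groups did not overlap. Against the other 5 always detected members the ratio was lower in galectin-9 by means of -0.27 to -0.74, with overlapping groups. Such a ratio shows unequal change of 2 spots and does not say which of them changed. The ratio reuses the miR-519a-3p values that already did not overlap between groups, so its separation is no further support. How often ratios of other probe pairs separate was not tested.

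The 3 other members of the first set above were near or under the detection limit. miR-519b-3p, detected on 6 galectin-9 and 5 control arrays, gave a log2 difference of -0.055. Its raw intensity minus background was 2.54 to 5.20 units on galectin-9 arrays and 0.603 to 4.55 units on control arrays, while that of miR-517c-3p was 12.2 to 17.3 and 8.09 to 18.8 units. miR-520c-3p, a metastasis-promoting relative of miR-373, was listed on 4 galectin-9 and 2 control arrays, with a log2 difference of -0.094. miR-519c-3p, listed on no array, had a background-subtracted raw intensity of -0.826 to 1.40 units on galectin-9 arrays and -1.90 to 0.598 on control arrays, close to the blank spots. Cross-hybridisation between these near-identical sequences was not tested.

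Across the 33 members tested, none was called in either direction at an adjusted p of 0.05 (limma), where 0.173% of the 1734 probes were called higher (3 probes) and 0% were called lower. At an unadjusted p under 0.05, 5 members were lower and none higher, against 8.65% lower and 4.21% higher of all probes. The fitted differences were below 0 for 24 members and above 0 for 9, with a median of -0.20, where 63.3% of all probes were below 0 and their median was -0.070. Of the 7 members detected on all arrays, which need no fill, 5 were below 0 (median -0.20), where 55.3% of the 891 always-listed probes were. The counts above and below 0 changed with the scaling and with the fill of undetected spots. With no normalisation 16 members were above 0 and 17 below, and with the authors' global normalisation 26 were above and 7 below, while the median of all probes stood at 0.063 and 0.23. Relative to the median of all probes, the members' median was -0.13 in the main fit and -0.11 under both of those scalings. On raw intensity, with neither floor nor background subtraction, 16 members were above 0 and 17 below (all probes 51.0% below).

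Undetected spots were set to the lowest detected level of their array, and this floor was -0.33 to 1.23 log2 units on galectin-9 arrays and 0.31 to 2.44 on control arrays, highest on control 6. The floor lies within the range of the dim members, so their values on an array that missed them are those of the floor. Of the 26 tested members not detected on every array, 19 were below 0. With 1 floor common to all arrays, 9 of the 33 members were above 0 and 11 below, and the median was 0 for the members and for all probes.

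Beside miR-519a-3p, 4 members had an unadjusted p under 0.05, all of them dim. miR-520h, reported to repress the drug transporter ABCG2, was detected on 6 galectin-9 and 5 control arrays. Its log2 level had a lowest value of 0.40, a median of 1.27 and a highest of 2.02 on galectin-9 arrays, against 1.67, 2.24 and 2.47 on control arrays, where 2.44 was the floor value of control 6. The groups overlapped, galectin-9 was lower in 6 of 6 pairs, and the difference was -0.89 (95% interval -1.41 to -0.37, adjusted p = 0.219, limma). Without control 6 it was -0.84. On raw intensity, with neither floor nor background subtraction, it was -0.063 (adjusted p = 0.259, limma). Leaving the background in shrinks the log2 differences of dim probes, so this value is not on the same scale. miR-520g-3p, which holds the whole miR-520h sequence plus 2 bases at the 3′ end, gave 0.22 (adjusted p = 0.632, limma).

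The 6-name probe of miR-519c-5p was detected on 4 galectin-9 and 5 control arrays, with a log2 difference of -0.79 (adjusted p = 0.300, limma). miR-517-5p, on 3 galectin-9 and 4 control arrays, gave -0.76. miR-498, described as a regulator of telomerase mRNA, was on 3 arrays of each group and gave -0.68. On raw intensity, again without background subtraction, the differences were -0.057 for the 6-name probe, -0.016 for miR-517-5p and -0.030 for miR-498. With a floor common to all arrays the 6-name probe gave -0.016, and every value of miR-517-5p and miR-498 lay at or under that floor, so it leaves them no difference to measure. The most positive member was the probe for miR-527 and miR-518a-5p, at 0.69 (adjusted p = 0.389, limma), detected on 6 galectin-9 and 3 control arrays.

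Other members gave differences between these, and none passed the test. Among the 10 brightest, miR-520d-3p gave 0.084, miR-519e-3p 0.058 and miR-521 -0.23, each detected on 6 galectin-9 and 5 control arrays. miR-512-3p, the first gene of the cluster, gave 0.28 and miR-1323 gave -0.25, with the same detection. miR-525-5p was detected on 6 galectin-9 and 2 control arrays and gave -0.023, and miR-526b-5p, on 6 and 4, gave -0.34. At the filter, 7 members were detected on exactly 5 arrays and were left out, 3 were on exactly 6 and 3 on exactly 7. miR-519d-5p, on 4 galectin-9 and 2 control arrays, gave -0.16, and miR-524-5p, on 3 and 4, gave -0.35. Of the members under the limit, miR-515-5p, reported to target sphingosine kinase 1, was detected on 3 galectin-9 and 0 control arrays, and miR-516b-5p on 2 and 1. Both were under the limit of 6 arrays and were not tested, and no fold is given for them.

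Other miRNAs that carry the seeds of the cluster were read off the same fit. Of 13 such probes outside it, 12 were tested and none was called, with 7 above 0 and 5 below. The 6 of the miR-17 group were detected on all arrays and all lay above 0 (miR-17-5p 0.28, adjusted p = 0.300, limma), where miR-519d-3p, with the same seed, lay at -0.23. The difference between them was not tested. The miR-371a to miR-373 cluster, which neighbours the placental cluster on chromosome 19 and marks embryonic stem and germ cell tumours, was taken with miR-1283, a placental cluster gene that the naming rule leaves out. Of these 9 probes, 7 were tested and none was called, with 3 above 0 and 4 below. Their values ran from -0.66 for miR-373-5p (adjusted p = 0.204, limma) to 0.17, and miR-1283 gave 0.074.

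The array's cell type markers fitted a squamous epithelial line. Of 7 squamous epithelial miRNAs, 6 were detected on all arrays, while 0 of 5 blood, 0 of 3 muscle, 1 of 4 stromal, 0 of 1 liver and 0 of 2 neuronal miRNAs were. The other squamous miRNA, miR-944, was detected on 11 arrays, as were miR-142-3p and miR-150-5p of the blood list. The stromal miR-143-3p and miR-145-5p and the muscle miR-206 were detected on 8. The summed linear normalised intensity of the squamous list was 9383 to 10476 units in galectin-9 and 8103 to 9336 in control. These sums did not overlap, but none of the list's members was called (limma). Such a sum is set mostly by its brightest probes, among them miR-21-5p, so it does not show a shift of the whole list. The fitted differences were above 0 for 6 and below 0 for 1, with a median of 0.055. How often sums of other lists separate was not tested. In this list miR-21-5p (log2 difference 0.42, adjusted p = 0.204, limma) and miR-31-5p (0.25, adjusted p = 0.267, limma) were higher in 6 of 6 pairs. So was miR-944 (0.75, adjusted p = 0.276, limma), whose groups overlapped. The groups of miR-21-5p and miR-31-5p did not overlap, as for 0.807% of the 1734 tested probes with galectin-9 higher. On raw intensity without a floor and with no filter, 13 of all 2565 probes were called higher. Among them were miR-21-5p and miR-31-5p (adjusted p = 0.0298 and 0.0213, limma). The part of these miRNAs in the cluster's values was not tested. In the other lists none was called either, and miR-1-3p of the muscle list was on no array.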

How the data were processed

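The deposited array files hold linear Cy5 intensity per spot as raw, background-subtracted and globally normalised values, per the file headers. The global normalisation sets each array's median to 25 and was used as an alternative, as was the series table. That table holds normalised intensities as deposited for the 891 probes listed on all arrays, and log2 was taken for the fit. Tested on the files, the authors' background equals a 5% trimmed mean (each tail) of the blanks, and values at or under background plus 2 SD are not listed. Array number and signal over background limit the precision.

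Raw intensity minus background was quantile-normalised over human probes, undetected spots were set to their array's lowest detected value, and log2 values were fitted as galectin-9 minus control with lmFit and eBayes (limma 3.58.1, R 4.3.3), with Benjamini-Hochberg adjustment over the 1734 probes detected on at least 6 arrays and a threshold of 0.05. Spots that a file does not mark good (6 human spots, none in the cluster) were left out. The fit was tested on simulated data.

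The members and lists were chosen with earlier results of these data known. Named were members on all arrays, those with an unadjusted p under 0.05, the 10 brightest, up to 4 nearest the filter, and a fixed list of 13. Levels of different probes are not comparable as amounts. Same-numbered samples deviated together in 6 of 6 pairs (correlation 0.171 to 0.527, median -0.042 for other combinations), so the numbers were taken as pairs from the data, and the block is an alternative. Alternatives changed the floor, normalisation, background, filter, block, slides and arrays used. The raw-intensity alternative left out both the floor and the background subtraction. Sequences are from RefSeq.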

Additional observations from a re-analysis of the deposited data

How the results depend on the processing

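Values near the limit depend on the floor, and the samples may be technical repeats. The log2 difference of miR-519a-3p stayed below 0 in 29 of 29 alternatives (-0.61 to -0.22) and passed the threshold in 8 (adjusted p 0.0145 to 0.695, limma). Over all tested probes, 3 were called higher and 0 lower in the reported fit. Those higher and lower were 6 and 3 with probes on all arrays, with a common floor and in the series table, 13 and 5 on raw intensity without a floor, with or without the filter (the latter chosen after seeing the data), 13 and 6 with normexp, 7 and 2 with a mean-variance trend, and 14 and 8 with the replicate block on probes listed on all arrays. The replicate block alone gave 1 higher. Leaving out slide 1, 2 or 3 gave 0 higher, and slide as a block 1 lower. In all of these but the common floor, the replicate block alone, the left-out slides and the slide block, the members called lower numbered 1, miR-519a-3p. Leaving out 1 array at a time gave 2 to 3 probes higher, 0 to 2 lower and 0 to 1 members lower.

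Some small differences changed sign, none of them past the threshold, and the cause was not tested. With a common floor, miR-521 gave 0.013. On raw intensity without a floor, with or without the filter, miR-519d-5p gave 0.0067, miR-520c-3p 0.030 and miR-525-5p 0.012, and with normexp they gave 0.0043, 0.019 and 0.0077. With no normalisation, the miR-517a-3p and miR-517b-3p probe gave 0.024, miR-519d-5p 0.093, miR-520c-3p 0.10 and miR-525-5p 0.18. With global normalisation, that first probe gave 0.19, miR-1323 0.13, miR-518b 0.10, miR-519d-3p 0.043, miR-519d-5p 0.26, miR-520c-3p 0.28, miR-521 0.11, miR-522-3p 0.028, miR-524-5p 0.090, miR-525-5p 0.35 and miR-526b-5p 0.084. Without slide 1, miR-520c-3p gave 0.24 and miR-520d-3p -0.056. Without slide 2, miR-519e-3p gave -0.11. Without slide 3, the miR-517a-3p and miR-517b-3p probe gave 0.031, miR-517c-3p -0.13, miR-519d-5p 0.28, miR-524-5p 0.036 and miR-525-5p 0.50. Leaving out 1 array at a time gave -0.045 to 0.11 for miR-517c-3p, -0.33 to 0.083 for miR-519d-5p, -0.059 to 0.24 for miR-519e-3p, -0.32 to 0.11 for miR-520c-3p, -0.013 to 0.17 for miR-520d-3p and -0.22 to 0.20 for miR-525-5p. Paired by replicate number, the block changed the call of no member over the 1734 probes.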
